A study of Mus musculus with 6 samples.

Results

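MPP4 are the multipotent progenitors of the bone marrow that carry the Flt3 receptor on their surface, and this account is about MPP4 of mice that lack 1 copy of Mof (Mof -/+). They are 3 of the 36 libraries of the series, and they were set against the 3 MPP2 and 3 MPP3 libraries of the same genotype. The members were taken by the population and genotype under which each library was deposited, and no measured value entered that rule. Earlier results of these data were known when the groups were chosen. All 9 libraries belong to 1 sequencing pool, so no difference of pool or genotype separates the groups.

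MPP4 were sorted as Lin- Sca-1+ cKit+ (LSK) cells with CD34, Flt3 and CD48 and without CD150. MPP2 were LSK cells with CD34, CD48 and CD150 and without Flt3, and MPP3 were LSK cells with CD34 and CD48 and without Flt3 or CD150. The mice of all 9 libraries were Mof -/+, and 9 wild-type libraries of the same 3 populations, from a pool of their own, are used below as a second look at the contrast. The cells were taken from bone marrow, 15 per sort, frozen and made into CEL-Seq2 libraries, which tag and count the 3' ends of polyadenylated RNA. The sources used here give no strain, age, sex, animal number or construction of the Mof allele. Since no label states whether replicate libraries come from different animals, the p-values below describe the spread of these libraries alone, and that spread may be technical. A level here is the RNA of 15 pooled cells, in which fewer cells of a type and less RNA per cell cannot be told apart.

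Early blood progenitors of the mouse split their potential along the MPP populations. MPP2 are known for giving megakaryocytes and red cells, MPP3 for giving granulocytes and macrophages, and MPP4, which overlap with the lymphoid-primed multipotent progenitors, for giving lymphocytes. Commitment to the B lineage brings on the pre-B cell receptor, in which the surrogate light chain, made of the Vpreb and Igll1 proteins, pairs with a new heavy chain and signals through Cd79a and Cd79b. Mof (gene symbol Kat8) is the lysine acetyltransferase that acetylates lysine 16 of histone H4.

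The 9 libraries held 118600, 55722 and 41002 counts in MPP4 replicates 1, 2 and 3, 39738, 19221 and 41452 in MPP2, and 58757, 79936 and 71576 in MPP3. One count is thus worth between 8.43 and 52.0 CPM (counts per 1000000 gene counts of a library), and a low level in MPP2 replicate 2, the shallowest library, rests on few molecules. Counts of genes per count of added spike-in RNA were 28.6, 17.3 and 15.0 in MPP4, 8.73, 6.41 and 43.0 in MPP2, and 34.5, 29.0 and 16.1 in MPP3. The ranges overlapped, and the log2 difference of MPP4 from the other 6 libraries was 0.08 (two-sided exact permutation test, p = 0.952, the smallest possible being 0.0238). Kat8 itself was too sparse to serve as a check: 0, 2 and 0 counts in MPP4, 0, 0 and 1 in MPP2, and 1, 1 and 0 in MPP3.

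MPP4 replicate 3 stood apart from the other MPP4 libraries. Its correlation with them over the 7427 genes tested averaged 0.638, against 0.711 for replicate 1 and 0.709 for replicate 2 (log2 of CPM + 20, across genes, which are not independent replicates). The beta globin transcript named Beta-s in the tables reached 100215 CPM in it, against 7631 and 897 CPM in MPP4 replicates 1 and 2 and 713 to 7913 CPM in the MPP2 and MPP3 libraries. Car2, Slc4a1, Hba-a1 and Alas2, which belong to maturing red cells, were also highest there, with 3414 CPM of Car2 against 53.8 to 936 CPM in the other 8. Cytosolic ribosomal protein genes summed to 94190 CPM in this library, against 146241 to 174081 CPM in the other 8. MPP4 replicate 2 and MPP2 replicate 1 had single marks of other cells, given below. Each result that replicate 3 changes is also given without it.

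The MPP2 libraries were less alike than those of either other population. By the same measure they averaged 0.587, 0.538 and 0.576 with each other, below the 0.642, 0.556 and 0.657 that they averaged with the MPP4 and MPP3 libraries. The MPP3 libraries averaged 0.768 to 0.791 with each other. A difference from the mean of MPP2 and MPP3 therefore rests in part on a group whose libraries were not closest to each other. MPP2 also held the shallowest library. At 39738, 19221 and 41452 counts its libraries, with MPP4 replicate 3 at 41002, were the least deep of the 9. The part of depth in these correlations was not tested.

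The label was first held against Flt3, Vpreb1 and Igll1. Flt3, the receptor that defines the gate, had 447, 287 and 97.6 CPM in MPP4, 50.3, 260.1 and 24.1 CPM in MPP2, and 119, 188 and 97.8 CPM in MPP3. MPP4 replicate 3 lay within the range of the Flt3-negative sorts, and the groups overlapped. The log2 difference of MPP4 from the mean of MPP2 and MPP3 was 1.11 ± 0.51 (SE), with an adjusted p of 0.453 (limma on log2 of the count rescaled to a common total + 1, Benjamini-Hochberg over all genes tested). Without MPP4 replicate 3 it was 1.69 ± 0.54 (limma, adjusted p = 0.221), and without MPP4 replicate 1 it was 0.66 (limma, adjusted p = 0.76). In 1 random thinning of all libraries to the depth of the shallowest it was 0. Slamf1, which encodes the CD150 of the MPP2 gate, gave 1 count in the 9 libraries, in MPP4 replicate 2 and none in MPP2, so that marker cannot be checked.

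Vpreb1, a component of the surrogate light chain, separated the groups. It had 1046, 395 and 415 CPM in MPP4, 151, 0 and 193 CPM in MPP2, and 170.2, 37.5 and 41.9 CPM in MPP3. Every MPP4 library lay above the other 6, and MPP4 averaged 6.25-fold the mean of the other populations. The log2 difference was 2.74 ± 0.57 (SE; limma, adjusted p = 0.00668). It was 2.96 without MPP4 replicate 3 (limma, adjusted p = 0.0195), and 2.24 without MPP4 replicate 1, which no longer passed (limma, adjusted p = 0.113). The near-identical gene Vpreb2 held 7 counts in MPP4 replicate 1 and 1 count in MPP2 replicate 1, and reads of the pair can be split between them.

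Igll1, its partner in that chain, had 699.8, 413 and 463 CPM in MPP4, 25.2, 104 and 72.4 CPM in MPP2, and 51.1, 0 and 0 CPM in MPP3. The lowest MPP4 library held more than any of the other 6. Igll1 had the largest rise among the genes that passed, with a log2 difference of 3.50 ± 0.52 (SE; limma, adjusted p = 8.14e-05) and a mean 12.5-fold that of the other populations. It kept its call without each single library in turn. The 2 genes are neighbours in the mm10 genome: GENCODE places Igll1 on the minus strand at chr16:16860671-16863985 and Vpreb1 on the same strand at chr16:16868403-16870843, where Top3b lies across it on the plus strand. No source used here says whether counting used strand, so that reads of a gene and of one lying across it, here or among the genes below, cannot be told apart.

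The promoters of 3 genes of the pre-B receptor that rose are shown, and all 3 are among the genes with the motif below. Vpreb3 and Cd79b rose as well, but are not among the genes found with it and are not shown. The match in all 3 is therefore no measure of how common the motif is. Each window runs from 250 bases before to 50 bases after the RefSeq start of the gene (build GRCm38.p6), 5′ to 3′ on the gene's own strand. Capitals mark a match to the E-box CAGGTG, the hexamer known for binding E proteins such as Tcf3, on either strand.
Igll1, chr16:16863936-16864235, minus strand: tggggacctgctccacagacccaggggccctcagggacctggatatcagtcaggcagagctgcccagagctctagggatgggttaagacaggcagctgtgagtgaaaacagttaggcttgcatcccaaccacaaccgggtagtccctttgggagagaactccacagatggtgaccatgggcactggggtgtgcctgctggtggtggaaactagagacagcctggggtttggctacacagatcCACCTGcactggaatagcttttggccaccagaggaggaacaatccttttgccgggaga
Vpreb1, chr16:16869206-16869505, minus strand: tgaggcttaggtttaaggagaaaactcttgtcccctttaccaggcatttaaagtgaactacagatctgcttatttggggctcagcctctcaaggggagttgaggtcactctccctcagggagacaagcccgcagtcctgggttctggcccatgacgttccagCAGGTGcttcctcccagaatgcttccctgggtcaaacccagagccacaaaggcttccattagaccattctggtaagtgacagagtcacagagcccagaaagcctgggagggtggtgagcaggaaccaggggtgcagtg
Cd79a, chr7:24897247-24897546, plus strand: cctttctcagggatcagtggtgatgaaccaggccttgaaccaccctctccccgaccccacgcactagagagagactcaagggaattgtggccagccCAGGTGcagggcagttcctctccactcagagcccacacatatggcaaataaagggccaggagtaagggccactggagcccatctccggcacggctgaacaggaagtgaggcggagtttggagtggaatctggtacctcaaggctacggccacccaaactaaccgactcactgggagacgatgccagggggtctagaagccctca

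Each of the 3 windows held 1 match, which began 8 bases before the RefSeq start of Igll1, 88 before that of Vpreb1 and 154 before that of Cd79a. GENCODE starts Vpreb1 and Cd79a further upstream. The whole Vpreb1 window lies inside its GENCODE span, and Cd79a starts at 24897381 there, so these distances hold for the RefSeq starts only. Of the 10 B cell precursor genes that rose, 8 had a window in the RefSeq table, and 5 of those held CAGGTG: Bfsp2, Blnk, Cd79a, Igll1 and Vpreb1. Over all 32851 windows the share with a match was 20.2%. A gene with more than 1 window was counted if any of them matched, so a share of genes is not the same measure as a share of windows. The motif CCCNNGGG, searched on both strands for the B lineage factor Ebf1, was found in 1 of the 8, Igll1, and in 13.7% of all windows. A match describes these letters and shows no binding.

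Across all genes, 93 of 7427 passed an adjusted p of 0.05 in MPP4 against the mean of MPP2 and MPP3 (limma), which is 1.25% of those tested. Of these, 42 rose in MPP4 (0.566%) and 51 fell (0.687%). The genes that rose included 10 of a B cell precursor list and 4 of a mitosis list, and those that fell 11 immediate early, 4 megakaryocyte and 4 stem cell genes. The 3 MPP4 libraries lay above all 6 others in 36 of the 42 and below them in 31 of the 51, against 2.38% above and 1.84% below of all genes tested. On recovered counts, edgeR's quasi-likelihood test called 90 of 1244 genes (7.23%), 66 of which limma called too, and DESeq2 called 79 of 3002 (2.63%).

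Without MPP4 replicate 3, 75 genes passed (29 higher and 46 lower), of which 56 were among the 93. Without MPP3 replicate 2 or MPP3 replicate 3 the count was 52 or 56. A fit over all 36 libraries, which shares 1 estimate of the spread with the shallow libraries of the series, left 5 of the 93 each with an adjusted p of 0.0296 (limma): Igll1, Chchd10 and Arpp21 higher, and Rgs1 and Slc18a2 lower. The calls below therefore rest on the spread within the 9 heterozygous MPP libraries.

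**Figure D1:**
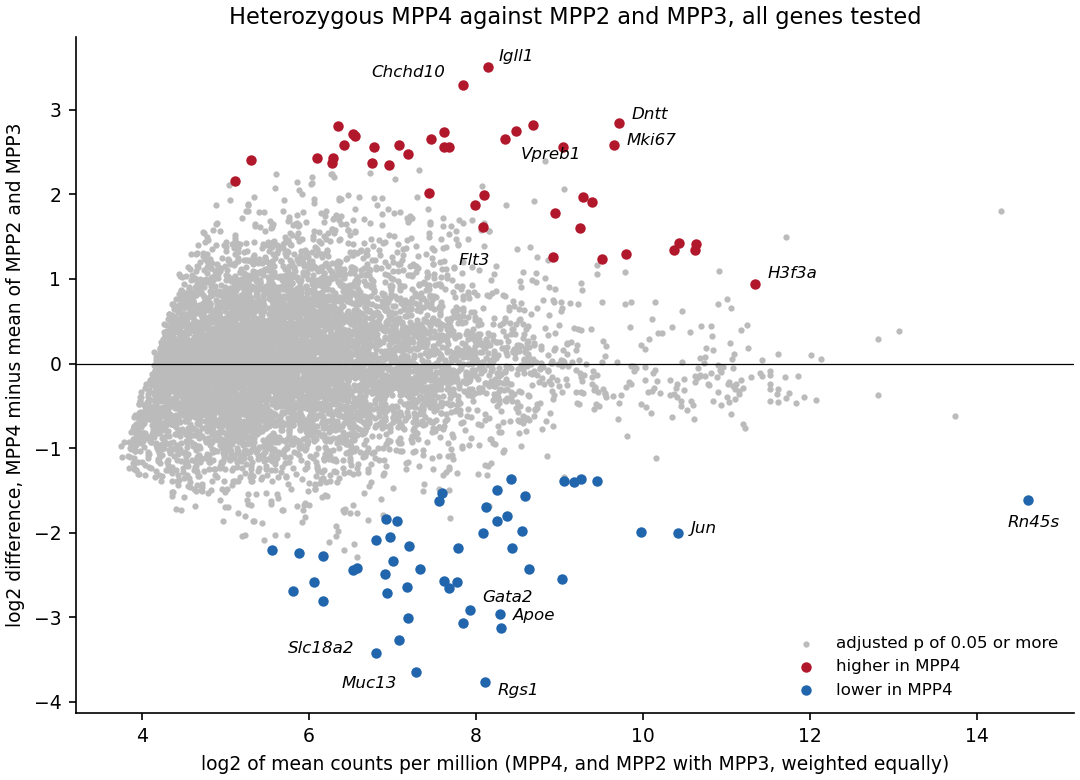
Each point is 1 of the 7427 genes tested in heterozygous libraries; the x axis is the log2 mean level in CPM and the y axis is the log2 difference of MPP4 from the mean of MPP2 and MPP3. The 42 genes that rose are red, the 51 that fell are blue, and Flt3, at 1.11, lies among the grey genes that did not pass.

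The B cell precursor genes moved together. Of 15 listed genes 13 were tested, all 13 had a positive log2 difference, and 10 rose: Vpreb1, Vpreb3, Igll1, Cd79a, Cd79b, Ebf1, Blnk, Dntt, Bfsp2 and Cd24a. That is 10 of 13, against 0.566% of all genes tested, and the median log2 difference of the list was 2.65, against 0.01 over all genes tested. This list, like the others, was chosen with earlier results of these data known, so these shares describe it and are not a test. Rag2 passed the filter on low counts through MPP4 alone, so its sign was fixed in advance. Its members summed to 8381, 7178 and 8561 CPM in MPP4, 1837, 1613 and 1544 CPM in MPP2, and 1634, 876 and 1048 CPM in MPP3. In the sum of the list even the lowest MPP4 library was far above the highest of the other 6. Like sums do not show like levels of each member. In MPP4 replicate 3 most of the sum came from members whose levels are not printed here, unlike in MPP4 replicates 1 and 2. Cd24a, one of those members, had a log2 difference of 0.71 without MPP4 replicate 3. Without MPP4 replicate 3, 9 of the 13 rose: Cd24a and Ebf1 no longer passed (limma, adjusted p = 0.445 and 0.176), and Rag2 did. The count was 6 of 12 tested without MPP4 replicate 1, when Bfsp2, Dntt, Blnk and Vpreb1 did not pass (limma, adjusted p = 0.178, 0.0534, 0.0596 and 0.113).

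Vpreb3, a partner in assembling the pre-B receptor, had 725, 897 and 1024 CPM in MPP4, 403, 104 and 314 CPM in MPP2, and 85.1, 25.0 and 139.7 CPM in MPP3. Every MPP4 library was above the other 6, while MPP2 and MPP3 overlapped with each other. Its log2 difference was 2.56 ± 0.41 (SE; limma, adjusted p = 0.000298).

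Cd79a and Cd79b encode the signalling pair of the receptor. Cd79a had 616, 1041 and 488 CPM in MPP4, 125.8, 260.1 and 72.4 CPM in MPP2, and 170.2, 25.0 and 14.0 CPM in MPP3. Cd79b had 346, 826 and 537 CPM in MPP4, 176, 52.0 and 96.5 CPM in MPP2, and 51.1, 12.5 and 125.7 CPM in MPP3. Both were highest in MPP4 replicate 2 and above the other 6 libraries in all 3 MPP4 libraries. Their log2 differences were 2.82 and 2.65 (limma, adjusted p = 0.000526 and 0.000919).

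Blnk, the adaptor that carries the signal of the receptor onward, had 405, 269 and 268 CPM in MPP4, 50.3, 0 and 72.4 CPM in MPP2, and 51.1, 25.0 and 41.9 CPM in MPP3. The groups were apart by a wide margin, with a log2 difference of 2.65 ± 0.52 (SE; limma, adjusted p = 0.0038), which did not pass without MPP4 replicate 1 (limma, adjusted p = 0.0596). Ebf1, a transcription factor that specifies the B lineage, had 126.5, 251 and 268 CPM in MPP4, 50.3, 52.0 and 48.2 CPM in MPP2, and 51.1, 0 and 0 CPM in MPP3 (log2 difference 2.35, limma, adjusted p = 0.0193; 0.147 without MPP4 replicate 2). Pax5, which fixes B cell identity, was near 0 in all 9 libraries, with 2 counts in MPP4, 2 in MPP2 and none in MPP3, and it did not pass the filter on low counts.

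Dntt, the enzyme that adds nucleotides at the joints of rearranged antigen receptor genes, varied widely among the MPP4 libraries. It had 2774, 1615 and 244 CPM in MPP4, 75.5, 156 and 145 CPM in MPP2, and 255, 175 and 55.9 CPM in MPP3. MPP4 replicate 3 lay below MPP3 replicate 1, while the other MPP4 libraries were far above all 6. The log2 difference was 2.85 (limma, adjusted p = 0.000794), and 3.86 without MPP4 replicate 3 (limma, adjusted p = 4.60e-06).

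Rag2, a subunit of the recombinase, had 84.3, 89.7 and 24.4 CPM in MPP4 and no count in the 6 MPP2 and MPP3 libraries. It did not pass with all 9 libraries (limma, adjusted p = 0.0538) and passed without MPP4 replicate 3 (limma, adjusted p = 0.0395). Rag1, the other subunit, had 101, 71.8 and 73.2 CPM in MPP4, 101, 0 and 24.1 CPM in MPP2 and no count in MPP3 (limma, adjusted p = 0.228). MPP2 replicate 1 therefore held as much Rag1 as an MPP4 library.

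**Figure D2:**
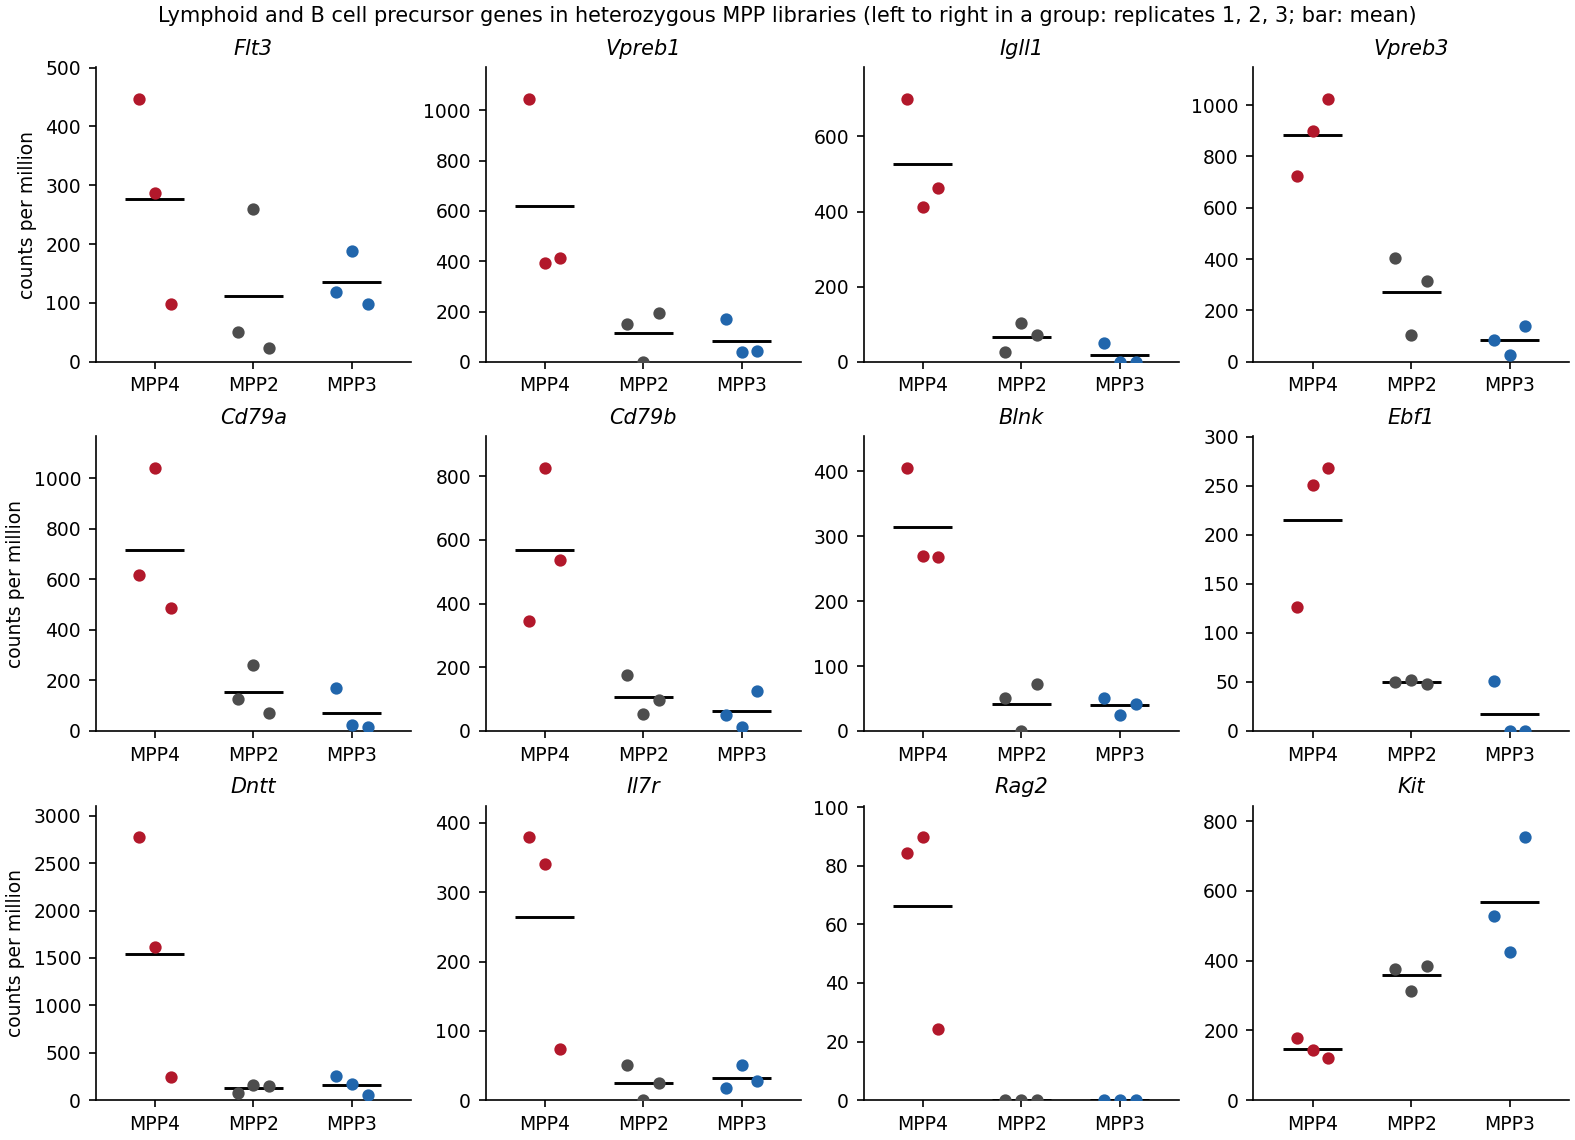
CPM of 12 genes (y axes, linear from 0, each panel on its own scale) in the 3 heterozygous MPP4, MPP2 and MPP3 libraries; points are libraries and bars are means. All 3 MPP4 points lie above the other 6 for Vpreb1, Igll1, Vpreb3, Cd79a, Cd79b, Blnk, Ebf1, Rag2 and Il7r, and below them for Kit, while MPP4 replicate 3 falls among the others for Flt3 and Dntt.

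Lymphoid priming genes, which progenitors turn on before commitment to a lineage, gave fewer calls. Of 27 listed genes 24 were tested, 22 had a positive log2 difference and 4 rose: Dntt, Il7r, Spib and Bach2. Among all genes tested, 0.566% rose. The median of the list was 1.13, and 1.35 without MPP4 replicate 3. Without MPP4 replicate 1 only 1 gene of the list rose, and without MPP4 replicate 2 or MPP3 replicate 1 it was 2. Il7r, the receptor through which interleukin 7 supports lymphoid progenitors, had 379, 341 and 73.2 CPM in MPP4, 50.3, 0 and 24.1 CPM in MPP2, and 17.0, 50.04 and 27.9 CPM in MPP3. MPP4 replicate 3 was the lowest of its group but above the other 6, and the log2 difference was 2.48 ± 0.58 (SE; limma, adjusted p = 0.0193). The call of Il7r was lost without MPP4 replicate 1, MPP4 replicate 2 or MPP3 replicate 1 (limma, adjusted p = 0.222, 0.206 and 0.0541), and it was firmer without MPP4 replicate 3 (limma, adjusted p = 0.00524).

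Spib and Bach2, transcription factors of the B and dendritic cell lineages, went the other way among the MPP4 libraries. Spib had 126.5, 287 and 634 CPM in MPP4, 151, 52.0 and 24.1 CPM in MPP2, and 0, 0 and 41.9 CPM in MPP3. Bach2 had 278, 305 and 609.7 CPM in MPP4, 226, 52.0 and 72.4 CPM in MPP2, and 34.0, 62.5 and 209.6 CPM in MPP3. Both were highest in MPP4 replicate 3, and MPP4 replicate 1 held less Spib than MPP2 replicate 1. Their log2 differences were 2.73 and 1.88 (limma, adjusted p = 0.00819 and 0.0362), and neither passed without MPP4 replicate 3 (limma, adjusted p = 0.193 and 0.35). Bach2 also missed without MPP4 replicate 1 or 2 (limma, adjusted p = 0.0724 and 0.0842). Satb1, Notch1, Lef1 and Tcf3, which act early in lymphoid cells, had log2 differences of 1.14 to 1.94 and did not pass (limma, adjusted p from 0.129 to 0.392).

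Markers of other mature cells were counted in the same libraries. Of 12 mature B cell genes 8 were tested, and Fcrla, an intracellular protein of B cells, was the only one to rise, with 75.9, 305 and 97.6 CPM in MPP4, 25.2, 0 and 0 CPM in MPP2, and 0, 0 and 41.9 CPM in MPP3 (log2 difference 2.58, limma, adjusted p = 0.0294). It lost its call without any of the 3 MPP4 libraries, MPP2 replicate 3, MPP3 replicate 1 or MPP3 replicate 2 (limma, adjusted p from 0.0534 to 0.296). Outside MPP4 the level of Fcrla was too low for the filter on low counts, so the direction of its difference was fixed in advance. In sum the list reached 784, 1418 and 854 CPM in MPP4 and between 163 and 604 CPM in the other 6. Whether mature B cells took part in the level of the B cell precursor genes was not tested.

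Macrophage and dendritic cell genes, 11 tested of 14 and none called, summed to 911, 4702 and 3122 CPM in MPP4 and to between 169 and 2844 CPM in the other 6, highest in MPP4 replicate 2, which held 1346 CPM of Cd74. T and NK cell genes summed to 118, 0 and 24.4 CPM in MPP4 and to 1032 CPM in MPP2 replicate 1, with Cd3e, Cd3d, Cd3g and Cd8a at 0 in all 9. Of the erythroid list 13 of 15 genes were tested and 1 fell, Apoe. It summed to 556, 449 and 8829 CPM in MPP4, 2919, 3850 and 2485 CPM in MPP2, and 1055, 1188 and 838 CPM in MPP3. The median log2 difference of the erythroid list was 0.36 with all libraries and -0.76 without MPP4 replicate 3.

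Cell division genes formed the second group that rose. Of 24 G2/M and mitosis genes 23 were tested, 22 had a positive log2 difference, and 4 rose: Mki67, Top2a, Ccna2 and Nusap1. Over all 7427 genes tested, 3749 had a positive difference and 0.566% rose. The median of the list was 1.65. The count that rose was 1 of 13 tested with a filter at a mean rescaled count of 4, and 2 with a pseudocount of 0.5. Without MPP4 replicate 3 and MPP2 replicate 2 together it was 1. The list summed to 5481, 2764 and 8804 CPM in MPP4, 881, 2601 and 2316 CPM in MPP2, and 2161, 600.5 and 433 CPM in MPP3. MPP4 replicate 2 was only just above the highest MPP2 library.

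Mki67, a protein of the surface of mitotic chromosomes, had 944, 843 and 2268 CPM in MPP4, 101, 364 and 410.1 CPM in MPP2, and 545, 100.1 and 41.9 CPM in MPP3. The groups did not overlap, and the log2 difference was 2.58 ± 0.48 (SE; limma, adjusted p = 0.00181). Top2a, the topoisomerase that untangles chromosomes at mitosis, had 1248, 718 and 902 CPM in MPP4, 125.8, 312 and 531 CPM in MPP2, and 545, 138 and 69.9 CPM in MPP3 (log2 difference 1.97, limma, adjusted p = 0.0122; 0.109 without MPP4 replicate 1). Of the 23 genes, 2 rose without MPP4 replicate 3, Mki67 and Top2a (limma, adjusted p = 0.0451 and 0.0398), and the median was 1.08. The count was 1 without MPP4 replicate 1, when Ccna2 and Nusap1 did not pass either (limma, adjusted p = 0.0852 and 0.193), 1 without MPP2 replicate 1, and 2 without MPP3 replicate 2 or 3.

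The other genes of this kind depended on single libraries. Kif22, a motor protein of mitotic chromosomes, had 126.5, 108 and 219.5 CPM in MPP4, no count in MPP2, and 68.1, 0 and 0 CPM in MPP3 (log2 difference 2.80, limma, adjusted p = 0.0132). Outside MPP4 its level was too low for the filter on low counts, so the direction of its difference was fixed in advance. Tk1, a thymidine kinase of dividing cells, and E2f2, a transcription factor of the G1/S transition, had log2 differences of 2.56 each and were highest in MPP4 replicate 3, at 341 and 756 CPM. Without that library Kif22, Tk1 and E2f2 did not pass (limma, adjusted p = 0.103, 0.244 and 0.304). Kif22 also missed without MPP4 replicate 1, MPP3 replicate 2 or MPP3 replicate 3 (limma, adjusted p = 0.0576, 0.0564 and 0.0512), and Tk1 without MPP4 replicate 2 (limma, adjusted p = 0.0559). The part of the red cell transcripts of MPP4 replicate 3 in these values was not tested. Of 24 genes of G1/S and DNA replication 22 were tested and 1 rose, Rrm2, a subunit of the ribonucleotide reductase, with a list median of 0.80. Rrm2 did not pass without MPP4 replicate 3 (limma, adjusted p = 0.42) or MPP4 replicate 2 (limma, adjusted p = 0.116).

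Histone variants and high mobility group proteins package the genome. Of 13 listed genes 12 were tested and 3 rose, Hmgb2, H2afz and H3f3a, against 0.566% of all genes tested. The list median was 0.93. Hmgb2 had 1273, 718 and 1195 CPM in MPP4, 252, 260.1 and 410.1 CPM in MPP2, and 391, 238 and 125.7 CPM in MPP3, with no overlap between the groups (log2 difference 1.90, limma, adjusted p = 0.00122). Its members summed to 12885 to 15582 CPM in MPP4, 6593 to 8082 CPM in MPP2 and 8425 to 9241 CPM in MPP3. Without MPP4 replicate 3, 4 genes of the list rose and 1 fell; H2afz and H3f3a were not among them (limma, adjusted p = 0.0761 and 0.104), while Hmgb2 was (0.00832). The number that rose was 1 without MPP3 replicate 2 or 3, and 2 without MPP4 replicate 1, MPP2 replicate 1 or 2, or MPP3 replicate 1. H2afz did not pass without MPP4 replicate 1 (limma, adjusted p = 0.167), nor H3f3a without MPP4 replicate 2 (limma, adjusted p = 0.0903).

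Among the named genes outside these lists, Chchd10, a mitochondrial protein, had 472, 467 and 341 CPM in MPP4, 75.5, 52.0 and 24.1 CPM in MPP2, and 34.0, 0 and 14.0 CPM in MPP3. No MPP4 library came near the other 6, with a log2 difference of 3.29 ± 0.50 (SE; limma, adjusted p = 0.000119). The gene lies head to tail before Vpreb3 on chromosome 10, at 75933130 to 75937747, and Vpreb3 starts at 75943057, both on the plus strand (mm10, GENCODE). Arpp21, a phosphoprotein with RNA-binding domains, had 269.8, 179 and 73.2 CPM in MPP4, 0, 0 and 24.1 CPM in MPP2, and 0, 25.0 and 14.0 CPM in MPP3 (log2 difference 2.72, limma, adjusted p = 0.0151). Outside MPP4 the level of Arpp21 was too low for the filter on low counts, so the direction of its difference was fixed in advance. BC035044 had 245, 233 and 219.5 CPM in MPP4, 0, 0 and 24.1 CPM in MPP2, and 136, 37.5 and 27.9 CPM in MPP3 (log2 difference 2.58, limma, adjusted p = 0.00829). All 3 MPP4 libraries were above the other 6 for both, but neither passed without MPP4 replicate 1 (limma, adjusted p = 0.153 for Arpp21 and 0.0655 for BC035044) or MPP4 replicate 2 (limma, adjusted p = 0.0843 and 0.0553).

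**Figure D3:**
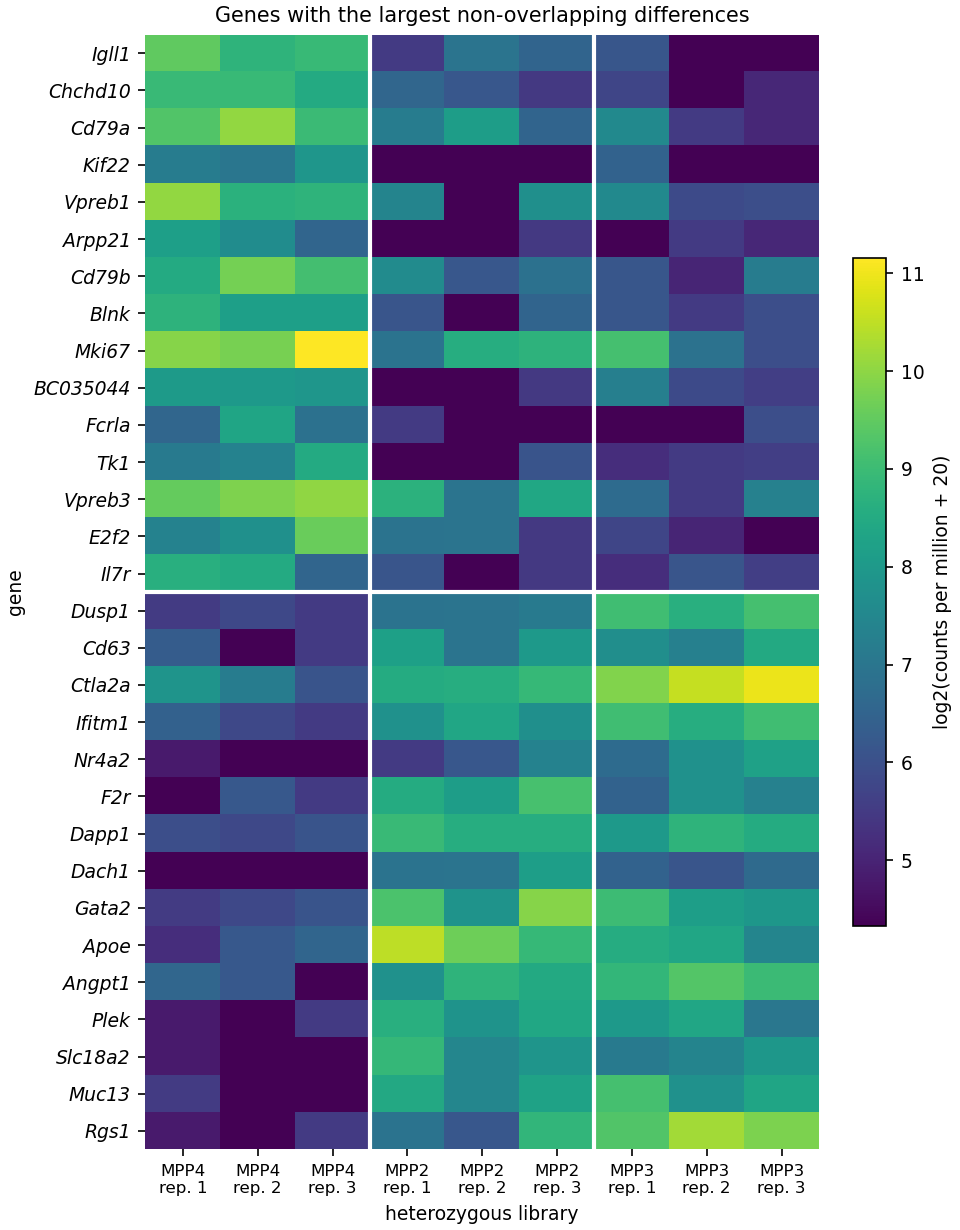
Level of the 15 genes with the largest rise (top) and the 15 with the largest fall (bottom) among those that passed and whose MPP4 libraries did not overlap the other 6; colour is log2(CPM + 20) and columns are heterozygous libraries. Igll1 is at the top with a log2 difference of 3.50 and Rgs1 at the foot with -3.77.

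Rgs1, a brake on G protein signalling, had 8.43, 0 and 24.4 CPM in MPP4, 101, 52.0 and 434 CPM in MPP2, and 613, 1176 and 880.2 CPM in MPP3. It had the largest fall, with a log2 difference of -3.77 ± 0.49 (SE; limma, adjusted p = 2.84e-05), and its MPP3 libraries were all above its MPP2 libraries. Pooled over libraries, its 2 counts in MPP4 against 216 in the other 6 libraries give a ratio of 74.9-fold lower. The exact 95% interval of 20.47 to 622 covers counting error only. Pooling lets deeper libraries weigh more, while the log2 difference weighs MPP2 and MPP3 equally, so the sizes of these measures cannot be set against each other.

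Muc13, a mucin of the cell surface, had 25.3, 0 and 0 CPM in MPP4, 327, 156 and 289 CPM in MPP2, and 545, 200.2 and 307 CPM in MPP3. Slc18a2, the vesicular transporter of monoamines, had 8.43, 0 and 0 CPM in MPP4, 453, 156 and 217 CPM in MPP2, and 119, 150.1 and 224 CPM in MPP3. Both were nearly absent from MPP4 and present in every other library, with log2 differences of -3.64 and -3.42 (limma, adjusted p = 2.84e-05 and 6.18e-05). The pooled ratio, again weighted by depth, was 22.6-fold lower for Muc13 (exact 95% interval 7.52 to 112) and 45.0-fold lower for Slc18a2 (exact 95% interval 7.81 to 1806).

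Of 16 megakaryocyte and platelet genes 11 were tested, all 11 had a negative log2 difference, and 4 fell, among them Plek, Gata2 and F2r. Over all 7427 genes tested, 3678 had a negative difference and 0.687% fell. The median of the list was -1.86, and -2.11 with the 1 gene at 0 in MPP4 set to the bound that 3 counts over the group allow. The sign of that gene was fixed in advance. In sum the list reached 295, 628 and 366 CPM in MPP4, 4303, 1145 and 4342 CPM in MPP2, and 1872, 1514 and 1202 CPM in MPP3. MPP2 replicates 1 and 3 were the highest, and every MPP4 library was below the other 6. Against MPP2 alone 4 of the list fell, and against MPP3 alone 2 fell.

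Gata2, a transcription factor of stem, mast and megakaryocyte cells, had 25.3, 35.9 and 48.8 CPM in MPP4, 579, 208 and 941 CPM in MPP2, and 494, 263 and 224 CPM in MPP3. Its log2 difference was -2.92 ± 0.43 (SE; limma, adjusted p = 7.55e-05), a mean 12.3-fold higher in the other populations. Plek, the platelet protein pleckstrin, had 8.43, 0 and 24.4 CPM in MPP4, 377, 208 and 314 CPM in MPP2, and 238, 313 and 112 CPM in MPP3 (log2 difference -3.27, limma, adjusted p = 6.18e-05). F2r, a thrombin receptor, had 0, 53.8 and 24.4 CPM in MPP4, 352, 260.1 and 555 CPM in MPP2, and 68.1, 200.2 and 139.7 CPM in MPP3 (log2 difference -2.64, limma, adjusted p = 0.00137). MPP4 and the other 6 did not overlap for any of these. Of the list, 3 of 12 genes tested fell without MPP4 replicate 3. Pf4 and Itga2b, which mark the lineage, were at 0 in at least 2 MPP4 libraries but also in MPP2 replicate 2, and did not pass.

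Of 20 stem cell genes 13 were tested, 10 had a negative log2 difference and 4 fell: Angpt1, Ctla2a, Ifitm1 and Hlf. Among all genes tested, 0.687% fell. For 1 tested gene, at 0 counts on one side of the contrast, the sign was fixed in advance. The median of the list was -0.79, and -0.24, -0.46 and -0.39 without MPP4 replicate 1, MPP3 replicate 2 and MPP3 replicate 3. The list summed to 953, 1310.1 and 1195 CPM in MPP4, 1812, 2081 and 1737 CPM in MPP2, and 3200 to 4471 CPM in MPP3. The order of the sums was thus MPP4, MPP2 and MPP3 from low to high, with no overlap between neighbours.

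Angpt1, the ligand of the Tie2 receptor, had 75.9, 53.8 and 0 CPM in MPP4, 201, 416 and 338 CPM in MPP2, and 442, 626 and 489 CPM in MPP3 (log2 difference -3.07, limma, adjusted p = 6.44e-05). Ctla2a had 211, 125.6 and 48.8 CPM in MPP4, 352, 364 and 458 CPM in MPP2, and 919, 1489 and 1956 CPM in MPP3, and fell against MPP3 (log2 difference -3.44, limma, adjusted p = 3.6e-06) while it did not pass against MPP2 (-1.65, limma, adjusted p = 0.0579). Ifitm1, an interferon-induced membrane protein, fell by 2.57 on the log2 scale (limma, adjusted p = 0.00014). Hlf, a transcription factor of stem cells, had 33.7, 0 and 0 CPM in MPP4, 25.2, 104 and 96.5 CPM in MPP2, and 460, 575 and 419 CPM in MPP3, with log2 differences of -4.29 from MPP3 and -1.73 from MPP2 (limma, adjusted p = 2.07e-05 and 0.257). MPP4 and MPP2 overlapped for Hlf.

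Kit, the stem cell factor receptor on which all 3 gates were set, was lower in MPP4 at the RNA level. It had 177, 144 and 122 CPM in MPP4, 377, 312 and 386 CPM in MPP2, and 528, 425 and 754 CPM in MPP3. No MPP4 library reached the others, and the log2 difference was -1.50 ± 0.33 (SE; limma, adjusted p = 0.0132). The call was lost without MPP4 replicate 2 (limma, adjusted p = 0.0553) or MPP3 replicate 3 (limma, adjusted p = 0.0693). Of the other proteins of the sort, Cd34 in MPP4 overlapped MPP2 and lay below MPP3, with 219, 179 and 73.2 CPM in MPP4, 25.2, 52.0 and 96.5 CPM in MPP2, and 408, 438 and 629 CPM in MPP3, and neither it nor Cd48 or Ly6a (Sca-1) passed. Of 9 listed surface proteins 8 were tested, Kit fell and Il7r, which is in none of the 3 gates given above, rose.

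Apoe, the lipid carrier apolipoprotein E, and Dapp1, an adaptor protein of lipid signalling, fell against both populations. Apoe had 16.9, 53.8 and 73.2 CPM in MPP4, 1409, 780.4 and 458 CPM in MPP2, and 357, 313 and 154 CPM in MPP3 (log2 difference -2.96, limma, adjusted p = 6.18e-05). Dapp1 had 42.2, 35.9 and 48.8 CPM in MPP4, 478, 364 and 362 CPM in MPP2, and 238, 413 and 349 CPM in MPP3 (log2 difference -2.66, limma, adjusted p = 6.18e-05). Apoe was highest in MPP2, while Dapp1 was at a like level in both. Cd63, a membrane protein of granules, fell by 2.48 (limma, adjusted p = 0.00414), and did not pass without MPP4 replicate 2 (limma, adjusted p = 0.0625). Dach1, a transcriptional regulator, had no count in MPP4 and 31 counts in the other 6 libraries. Pooled over libraries, this is at least 7.16-fold lower with 3 counts over the group as the floor.

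Immediate early genes, which cells switch on within minutes of a stimulus, gave the longest list of falls. Of 20 listed genes 18 were tested, all 18 had a negative log2 difference, and 11 fell: Fos, Fosb, Jun, Junb, Jund, Egr1, Ier2, Ier3, Klf6, Dusp1 and Nr4a1. Over all 7427 genes tested, 3678 had a negative difference and 0.687% fell. The median of the list was -1.75, and -1.84 with a gene at 0 in MPP4 set to its bound. The sign of that gene was fixed in advance. Its members summed to 1248, 2674 and 3219 CPM in MPP4, 3674, 2966 and 7020 CPM in MPP2, and 15334, 16363 and 15787 CPM in MPP3. Every MPP3 library was far above those of the other populations, and MPP2 replicate 2 was below MPP4 replicate 3.

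Jun, a subunit of the AP-1 factor, had 379, 610.2 and 390.2 CPM in MPP4, 1057, 468 and 2268 CPM in MPP2, and 3251, 3453 and 3185 CPM in MPP3 (log2 difference -2.00, limma, adjusted p = 0.000266). Dusp1, a phosphatase of MAP kinases, had 25.3, 35.9 and 24.4 CPM in MPP4, 101, 104 and 121 CPM in MPP2, and 511, 375 and 545 CPM in MPP3 (log2 difference -2.43, limma, adjusted p = 0.00055). Against MPP3 alone 12 of the 18 fell, with a median of -2.56, and against MPP2 alone none did, with a median of -0.84. Against the mean, 10 of the 18 fell without MPP4 replicate 3, with a median of -1.91, and 5 fell without MPP4 replicate 1, with a median of -1.37. Fos, Fosb, Ier2, Junb, Jund and Klf6 lost their calls in that second case (limma, adjusted p = 0.0978, 0.193, 0.178, 0.247, 0.247 and 0.0704). The count was 7 without any one of the 3 MPP3 libraries. The 2 contrasts share the MPP4 libraries, and a difference between MPP2 and MPP3 was not tested. Nr4a2, a nuclear receptor of the same kind that is not on the list, fell by 2.58 (limma, adjusted p = 0.0132), and missed without MPP4 replicate 2, MPP3 replicate 2 or MPP3 replicate 3 (limma, adjusted p = 0.0559, 0.0642 and 0.0752).

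**Figure D4:**
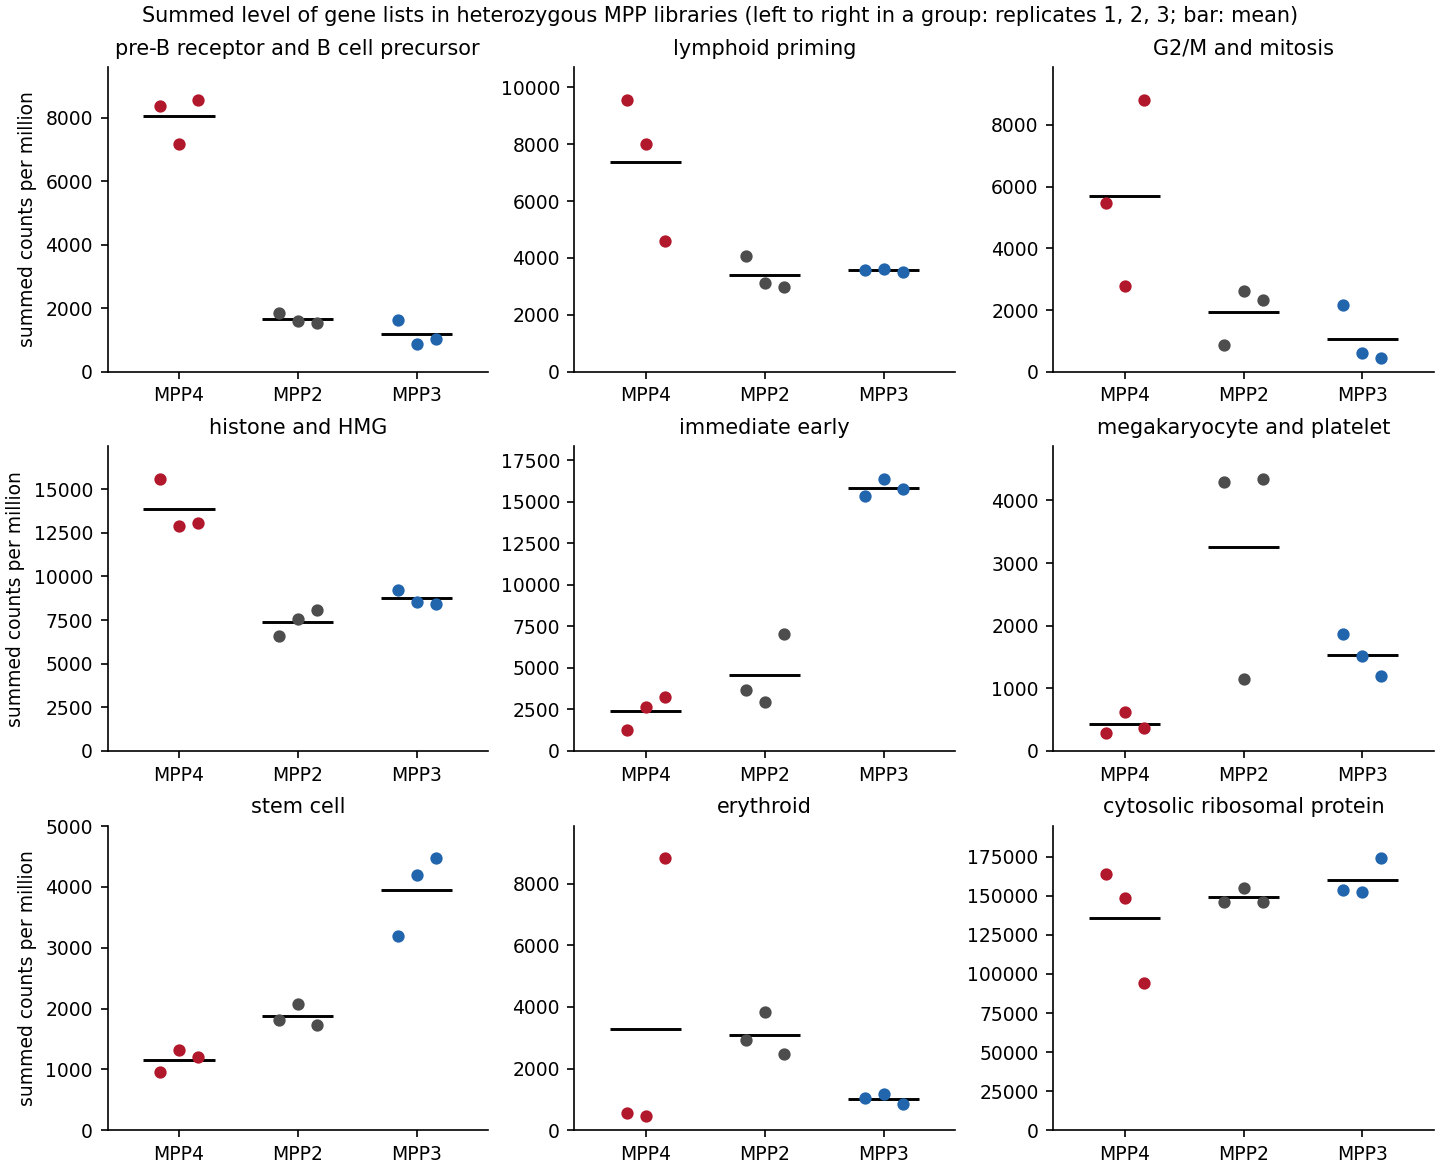
Summed CPM of 9 gene lists (y axes, linear from 0, each panel on its own scale) in the 3 heterozygous MPP4, MPP2 and MPP3 libraries; points are libraries and bars are means. The pre-B list stands at 7178 to 8561 in MPP4 and at most 1837 elsewhere, immediate early genes at 15334 to 16363 in MPP3, and the erythroid list at 8829 in MPP4 replicate 3. A sum can be led by a few abundant members, so like sums do not show like levels of each gene.

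Setting MPP4 against each population alone gave 38 genes against MPP2 (limma, 0.512% of those tested), 20 higher (0.269%) and 18 lower (0.242%). Against MPP3 it gave 91 genes (limma, 1.23%), 30 higher (0.404%) and 61 lower (0.821%). Against MPP2 the count was 14 to 25 without MPP4 replicate 1 or 2, MPP2 replicate 1 or MPP3 replicate 1 or 2, and against MPP3 it was 46 without MPP3 replicate 2 or 3. Of the genes called, 21 passed in both, 9 higher and 12 lower. Of the 93 genes called against the mean, 34 were called against MPP2, 64 against MPP3 and 16 against neither. Igll1 had log2 differences of 2.76 against MPP2 and 4.24 against MPP3 (limma, adjusted p = 0.0216 and 2.93e-05), and Muc13 of -3.46 and -3.83 (limma, adjusted p = 0.000327 and 2.93e-05). E2f2, by contrast, passed against MPP3 at 3.30 and not against MPP2 at 1.82 (limma, adjusted p = 0.00285 and 0.294).

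Rn45s, the precursor of ribosomal RNA, which comes from many gene copies and is not polyadenylated as messenger RNA is, was lower in MPP4. It had 12867, 10373 and 10487 CPM in MPP4, 32614, 54368 and 68489 CPM in MPP2, and 30652, 37355 and 11400 CPM in MPP3 (log2 difference -1.61, limma, adjusted p = 0.000182). MPP3 replicate 3 lay among the MPP4 libraries. No gene of the cytosolic ribosomal protein (73 tested) or ribosome biogenesis (19 tested) lists passed. Their medians were -0.24 and -0.54 with all libraries and turned to 0.04 and 0.10 without MPP4 replicate 3.

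Respiratory chain genes had a positive log2 difference in 28 of 30 tested, with a median of 0.47, but none passed. The share above 0 is set beside 3749 of 7427 for all genes tested, whose median was 0.01. Genes of glycolysis (12 tested), heat shock proteins (11), the interferon response (14), the MSL and NSL complexes in which Mof works (10) and Gimap GTPases (6) also gave no call. Among 26 blood transcription factors tested, E2f2 rose and Gata2 and Lmo2 fell. Lmo2 did not pass without MPP4 replicate 1 or MPP4 replicate 2 (limma, adjusted p = 0.177 and 0.0843), nor E2f2 without MPP4 replicate 3, as given above. Of 10 myeloid progenitor genes tested 1 fell, Cd63, and of 7 neutrophil genes 1 fell, S100a8, which had no count in MPP4 and 94 in the other 6 libraries. Without any one MPP4 library S100a8 did not pass (limma, adjusted p from 0.0843 to 0.108), and Elane, Ltf and Cebpe were at 0 in all 9 libraries.

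The same contrast was made in the 9 wild-type libraries, which share no sample with the heterozygous ones but are shallow and uneven. They held 38295, 38142 and 18040 counts in MPP4, 10331, 12339 and 11295 in MPP2, and 7304, 2764 and 20839 in MPP3. Of 2476 genes tested, 1 passed (limma, 0.0404%), namely Rn45s, which had 4283, 9937 and 10310.4 CPM in MPP4, against 20423 to 118669 CPM in the other 6 (log2 difference -2.54, limma, adjusted p = 2.20e-19). A total of 64 genes had an unadjusted p under 0.05 (limma), and edgeR called none of 182. DESeq2 called 1 of 10182 (0.00982%), Rn45s again (DESeq2, adjusted p = 0.000229). The limma p of Rn45s borrows its spread from the other genes tested, by a trend over level. Its size therefore does not measure the spread of Rn45s itself.

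Wild-type libraries stood apart within their groups. Mature neutrophil genes summed to 209, 708 and 33869 CPM in wild-type MPP4, 19166, 486 and 1062 CPM in wild-type MPP2, and 22043, 4703 and 13916 CPM in wild-type MPP3, against 422 to 2365 CPM in the heterozygous libraries. G2/M and mitosis genes summed to 4335, 7472 and 554 CPM in wild-type MPP4, 5324, 7699 and 3541 CPM in wild-type MPP2, and 4244, 2894 and 1871 CPM in wild-type MPP3. Wild-type MPP4 replicate 3 was thus the highest of the 9 wild-type libraries in neutrophil genes and the lowest in mitosis genes. The part of these libraries in the wild-type values and in the difference between genotypes below was not tested.

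Vpreb1 had 940.1, 1049 and 443 CPM in wild-type MPP4, 96.8, 0 and 443 CPM in wild-type MPP2, and 0, 362 and 0 CPM in wild-type MPP3. Igll1 had 470.0, 472 and 443 CPM in wild-type MPP4, 96.8, 0 and 88.5 CPM in wild-type MPP2, and 0, 362 and 0 CPM in wild-type MPP3. The value of 362 CPM is 1 count in the shallowest library. Their log2 differences were 2.34 and 1.97 in wild type (limma, adjusted p = 0.154 and 0.407), on counts rescaled to a total of 12339. Heterozygous counts were rescaled to 55722, so that 1 added count weighs less there, and the sizes of the log2 differences of the genotypes cannot be set against each other. Flt3 had 548, 105 and 0 CPM in wild-type MPP4, 0, 0 and 88.5 CPM in wild-type MPP2, and 0, 0 and 48.0 CPM in wild-type MPP3, a log2 difference of 1.10 (limma, adjusted p = 0.9998).

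Of the 93 genes called in heterozygous libraries, 70 were tested in wild type. Among the 37 of them that rose, 24 had a positive difference in wild type, and among the 33 that fell, 26 had a negative one. Over all 2461 genes tested in both, 1345 were positive and 1116 negative in wild type. In wild type Dntt stood at 2.21, Blnk at 1.39, Vpreb3 at 0.82, Cd79a at 0.59, Ebf1 at 0.56, Cd79b at 0.27 and Cd24a at -0.08, while Mki67 and Top2a were at -0.38 and -0.98, Spib at -0.80 and Kit at 0.14. The B cell precursor list as a whole summed to 8173, 7262 and 5710 CPM in wild-type MPP4, 6292, 7699 and 7348 CPM in wild-type MPP2, and 3697, 1809 and 816 CPM in wild-type MPP3. The sums of MPP4 and MPP2 overlapped in wild type, unlike in heterozygous libraries, while every wild-type MPP3 library was below both. Vpreb1 and Igll1 made up little of the wild-type MPP2 sums: together with Flt3 they came to 194, 0 and 620 CPM there. The overlap is thus one of sums, which a few abundant members can lead, and the part of single members in it was not tested.

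The difference between the genotypes was then tested directly, with all 18 libraries rescaled to the same total. No gene of 6167 passed (limma), and 247 had an unadjusted p under 0.05. EdgeR called none of 1236, and DESeq2 called 1 of 12703 (0.00787%), S100a8, whose MPP4 libraries were at 0 in heterozygous mice and at 0, 52.4 and 12029 CPM in wild type. For Mki67 the difference of the log2 contrasts, heterozygous minus wild type, was 2.98 ± 0.94 (SE; limma, unadjusted p = 0.00276, adjusted p = 0.9997), and for Igll1 it was 0.39 ± 1.07 (SE; limma, adjusted p = 0.9997). At this depth the data do not separate the 2 genotypes in what sets MPP4 apart, and a p that misses the threshold does not show that they are alike.

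**Figure D5:**
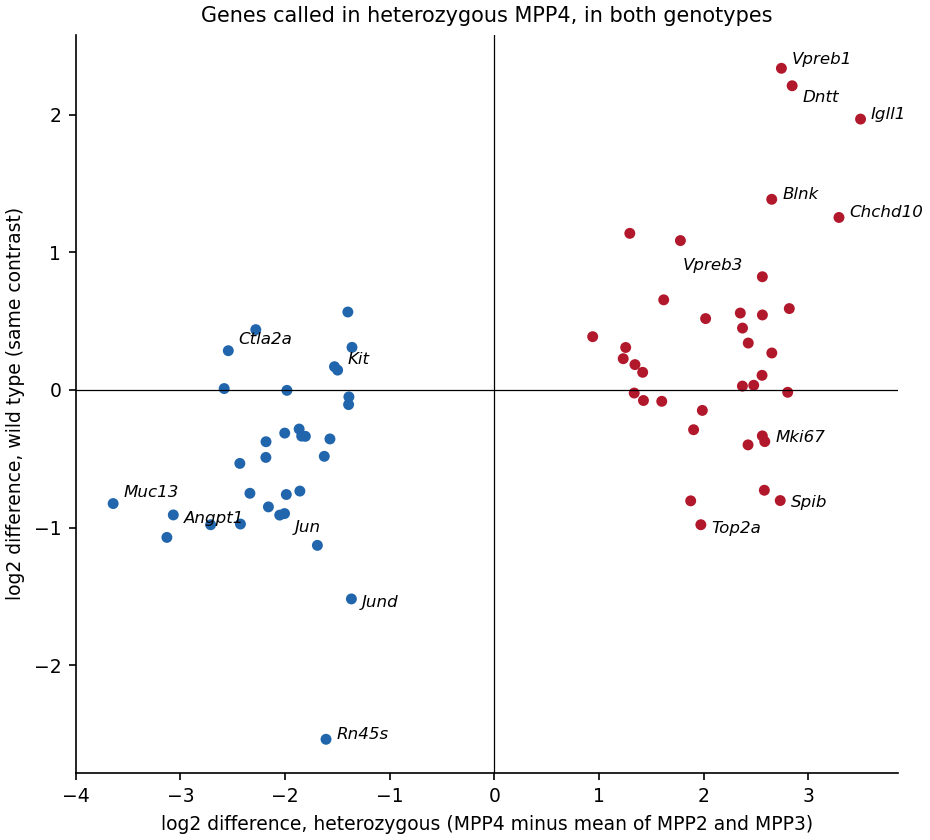
Each point is 1 of the 70 genes called in heterozygous libraries and tested in both genotypes; the x axis is the log2 difference of MPP4 from the mean of MPP2 and MPP3 in heterozygous libraries and the y axis the same in wild-type libraries, with genes that rose in red and genes that fell in blue. The axes rest on different count totals (55722 and 12339), so only the signs compare. Vpreb1 at 2.74 and 2.34 and Igll1 at 3.50 and 1.97 are at the upper right, and Mki67 at 2.58 and -0.38 is below the horizontal line.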

How the data were processed

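The submitters' processing notes name BWA 0.6.2-r126 as aligner and mm10 as build, while no source used here names the counter, the gene annotation or how molecular identifiers and strand were treated. What the authors deposited is a scaled signal for each gene: a count over the size factor of its library, as read from the values. Dividing each column by its smallest positive value gave whole counts for 100% of values (within 0.01), in 23538 genes. For 1 library, heterozygous MPP2 replicate 2, the deposited values are themselves the counts. The 92 spike-in transcripts were left out of totals and tests. Each table holds 1 population of 1 genotype, and its columns name the pool; replicates are numbered in column order. No pair of libraries was identical.

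Counts were rescaled to the median library total (55722), genes with a mean of at least 1 were kept, and log2(rescaled count + 1) was fitted with limma 3.58.1 (trend, R 4.3.3) over the 9 heterozygous MPP libraries (wild type: a total of 12339; both genotypes: 38218.5), with Benjamini-Hochberg adjustment at 0.05. Fold changes on this scale understate those of low genes. A gene that passed the filter only through the group where it was high had its direction fixed in advance. The count tests were edgeR 4.0.16 (quasi-likelihood) and DESeq2 1.42.0 on the recovered counts, and exact permutation used scipy 1.17.1. On simulated heterozygous libraries, limma recovered 46 of 50 genes raised 8-fold and 15 of 50 raised 4-fold. Of genes lowered, it recovered 12 of 37 tested at 0.125 of their level and 7 of 43 at 0.25. It made 0 false calls among 7397 genes, and edgeR made 1 among 1305. The simulation gave all genes 1 common spread and, apart from the changed genes, all libraries 1 profile. It held no library like MPP4 replicate 3 and no loose group like MPP2, so it does not measure false calls in the real libraries. CPM are counts per 1000000 gene counts. Intervals cover counting error only.

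The named genes are Flt3, Vpreb1, Igll1, Kat8, the proteins of the sort, list members, and up to 15 genes per direction that passed and did not overlap in CPM, by size of the difference; Rag1, Rag2, Pax5, Hmgb2, Rn45s and others outside these were chosen after their values were seen. The groups, lists and rules were chosen with earlier results of these data known. Promoter windows are from RefSeq (GRCm38.p6), and gene positions are from GENCODE on mm10. Some members of the lists are counted but not reported here by name.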

Additional observations from a re-analysis of the deposited data

How the results depend on the processing

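The count of genes in MPP4 against the mean of MPP2 and MPP3 (93) lay between 63 and 111 under pseudocounts of 0.5 and 4, no filter and a filter at 4, TMM scaling, DESeq2 size factors, edgeR, DESeq2, globins left out and without the 2 libraries least like their group. It was 5 with all 36 libraries in the fit and 61 with counts thinned to the shallowest library. Against MPP2 (38) it was 19 with a pseudocount of 0.5, 16 with a filter at a mean of 4, 1 with all 36 libraries, 18 when thinned and 65 without the 2 libraries least like their group; against MPP3 (91) it was 6 with all 36 libraries. In wild type (1) it was 2 with no filter, 0 with a filter at 4, 6 with TMM and 0 with edgeR, and the genotype difference (0) was 1 with DESeq2. The cause of these moves was not tested.

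Leaving out 1 library at a time, which is limma on the libraries left, gave 52 to 127 genes against the mean, 14 to 39 against MPP2, 46 to 120 against MPP3, 1 to 5 in wild type (4 and 5 without MPP4 replicate 1 or 3) and 0 for the genotype difference. The log2 difference in counts per spike-in count (0.08) ran from -0.22 to 0.33, and was -0.0207 without the 10 most abundant spike-ins. Under the same left-out libraries Cd34 (-0.21) ran from -0.49 to 0.21, and was 0.212 without MPP4 replicate 3 and MPP2 replicate 2 together, while Cd48 (0.13) ran from -0.0756 to 0.43. Flt3 passed at 2.09 without MPP4 replicate 3 and MPP2 replicate 2 (limma, adjusted p = 0.00885), and ran from 0 when thinned to 1.69 under all other settings, where it did not pass. Thinning, left-out globins and the 2 left-out libraries were chosen after seeing the data. TMM and DESeq2 size factors moved the median of all genes to 0.10 and 0.06. Of the 31 called genes followed, 26 lost their call with all 36 libraries and 11 when thinned. No paired analysis was possible because no replicate number recurs between the groups' columns.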
